A study of Homo sapiens with 12 samples.

Results

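Among the ATAC-seq peaks of KYSE510 cells, 798 regions had a peak in every control library and in no library of cells in which HCP5 was silenced. They are called lost regions in what follows, as a name for this pattern of listed peaks. They were selected by a rule on peak height: peaks with a height of 3 or more on chromosomes 1 to 22 were merged across the 6 KYSE510 libraries wherever they overlapped by 1 bp, which gave 251400 merged regions. The 798 lost regions were 0.317% of these. The opposite pattern, a peak in all 3 silenced libraries and in no control library, was found in 1600 regions, or 0.636%, and these are called gained regions. A further 2685 regions had a peak in all 3 control libraries and in exactly 1 silenced library, and 45090 had a peak in all 6. Because the pattern itself defined the lost regions, their control and silenced KYSE510 values are given as a description with no test. The number rests on all 6 libraries: without control library 1, 2 or 3 it was 2379, 2638 or 2774, and without silenced library 1, 2 or 3 it was 1600, 1722 or 1787.

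KYSE150 and KYSE510 are established human oesophageal squamous carcinoma lines, and the series title ties the long non-coding RNA HCP5 to apoptosis and to the transcription of c-Myc through UTP3, a nucleolar protein. The 4 groups were control KYSE510, HCP5-silenced KYSE510, control KYSE150 and HCP5-silenced KYSE150, all grown in RPMI-1640 with serum, with 3 libraries each. How HCP5 was silenced, which construct the control cells carried, whether a line was used as 1 clone, and whether the 3 libraries of a group came from separate cultures are not given in the sources used here. The p-values below therefore measure only the spread between libraries, which may be technical.

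In ATAC-seq a transposase cuts DNA where nucleosomes leave it exposed, so that reads pile up over promoters, enhancers and other sites bound by regulatory proteins. A peak list records the places where that pile passes a threshold set by the local background. A place without a listed peak can still carry reads, so a lost region is one whose pile was listed in 1 group and not in the other. Read counts were not used here and the depth of each library is unknown, so heights are given as deposited, with no scaling between libraries.

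The KYSE510 lists held 101552 to 114555 peaks of height 3 or more in the control libraries and 105795 to 119939 in the silenced libraries. The KYSE150 lists held 51492 to 61585 such peaks per library. Peaks under a height of 3 made up 88.7 to 90.2% of the KYSE150 lists on chromosomes 1 to 22, which reached down to a height of 1. In the KYSE510 lists, which reached down to 2, they made up 8.48 to 11.3%. A height of 3 was thus a different cut in each line. Of 10 squamous epithelial markers, KRT17 and SFN had a peak of height 10 or more within 1 kb of the gene start in all 6 KYSE510 libraries. KRT5 had one in 5, DSC3 in 3, and KRT6A, DSG3 and PERP in 1 each, while TP63, KRT14 and PKP1 had none. Of 5 markers each for leukocytes, fibroblasts, endothelial cells and glandular epithelium, CD68 and COL1A1 had such a peak in all 6 libraries, and no other did. The defining squamous marker TP63 was thus without a tall peak at its starts in these lists. Peaks do not measure the HCP5 transcript, so silencing itself was not checked.

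**Figure D1:**
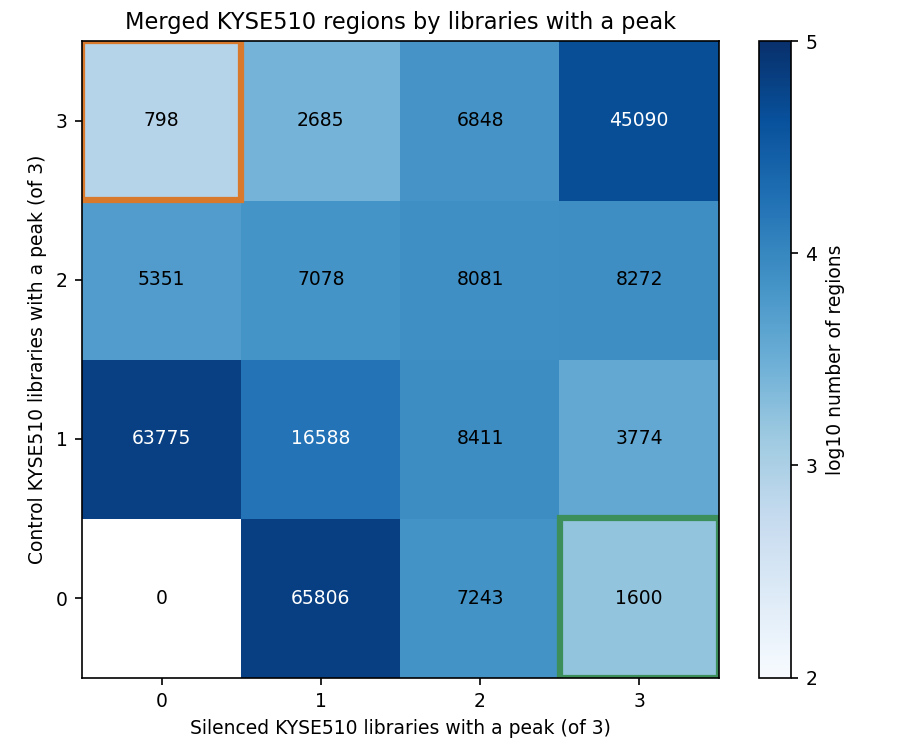
Number of merged KYSE510 regions by how many of the 3 control libraries (vertical axis) and of the 3 silenced libraries (horizontal axis) had a peak of height 3 or more, with colour on a log10 scale. The lost regions (798, orange frame) and the gained regions (1600, green frame) lie at opposite corners, and the regions with a peak in a single library are the most numerous.

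Sequence was at hand only for promoters, as windows of 250 bases that end at a gene start, from RefSeq on GRCh38.p14. Lost regions reached into 33 such windows of 30 genes, the only places where any of their DNA could be read. The windows below are those of the 6 first-ranked protein-coding genes among them, ranked by the lowest control height of the region, followed by EAF1 and KCTD20, which were chosen after their matches were seen because they hold an ETS and an AP-1 motif. Each is written 5′ to 3′ along the gene, with capitals marking every match on either strand to the motifs searched: AP-1 (TGANTCA), the E-box that MYC and MAX bind (CACGTG), the GC box of SP factors (GGGCGG), TEAD (GGAATG), RUNX (TGTGGT), the letters AGATAA that GATA factors bind, and ETS (CCGGAAGT). Matches that overlap each other were each counted. They were counted over the whole window, so a match can lie outside the lost region. The region covered all 250 bases at KCTD17, SPPL3, GART and EAF1. It covered 236 at NPY1R, 184 at TAPBP, 182 at SERINC2 and 167 at KCTD20. At LINC01102, whose window is not printed, it covered 90.
KCTD17, chr22:37051492-37051741, plus strand: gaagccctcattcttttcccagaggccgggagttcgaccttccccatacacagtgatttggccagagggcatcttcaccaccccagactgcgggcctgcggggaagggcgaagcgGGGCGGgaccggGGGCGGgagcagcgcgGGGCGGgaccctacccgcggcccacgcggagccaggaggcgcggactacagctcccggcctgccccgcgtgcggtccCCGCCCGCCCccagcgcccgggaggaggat
NPY1R, chr4:163332597-163332846, minus strand: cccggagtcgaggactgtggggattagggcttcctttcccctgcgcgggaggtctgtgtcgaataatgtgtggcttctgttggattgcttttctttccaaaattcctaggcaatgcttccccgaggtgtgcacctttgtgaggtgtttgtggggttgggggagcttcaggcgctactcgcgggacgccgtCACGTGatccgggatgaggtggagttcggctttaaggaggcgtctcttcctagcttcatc
SPPL3, chr12:120904359-120904608, minus strand: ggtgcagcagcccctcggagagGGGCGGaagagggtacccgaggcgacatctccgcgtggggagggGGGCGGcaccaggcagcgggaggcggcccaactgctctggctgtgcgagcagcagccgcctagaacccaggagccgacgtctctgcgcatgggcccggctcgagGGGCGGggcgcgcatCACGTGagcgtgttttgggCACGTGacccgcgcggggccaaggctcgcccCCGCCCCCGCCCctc
GART, chr21:33542118-33542367, minus strand: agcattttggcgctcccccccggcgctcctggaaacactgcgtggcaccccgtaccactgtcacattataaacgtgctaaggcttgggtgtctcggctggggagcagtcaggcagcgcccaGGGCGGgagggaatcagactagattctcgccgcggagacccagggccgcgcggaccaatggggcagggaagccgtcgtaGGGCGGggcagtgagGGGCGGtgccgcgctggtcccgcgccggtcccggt
SERINC2, chr1:31413563-31413812, plus strand: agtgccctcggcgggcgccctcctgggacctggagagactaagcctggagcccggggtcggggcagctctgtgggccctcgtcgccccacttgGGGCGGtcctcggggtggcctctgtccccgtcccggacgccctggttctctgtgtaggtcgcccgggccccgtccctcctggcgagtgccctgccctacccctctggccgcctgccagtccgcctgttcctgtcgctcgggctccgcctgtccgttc
TAPBP, chr6:33314079-33314328, minus strand: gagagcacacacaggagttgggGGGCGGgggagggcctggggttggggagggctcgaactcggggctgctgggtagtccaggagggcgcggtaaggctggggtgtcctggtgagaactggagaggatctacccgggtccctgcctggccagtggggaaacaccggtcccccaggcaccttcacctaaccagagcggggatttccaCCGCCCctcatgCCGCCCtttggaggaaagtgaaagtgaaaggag
EAF1, chr3:15427348-15427597, plus strand: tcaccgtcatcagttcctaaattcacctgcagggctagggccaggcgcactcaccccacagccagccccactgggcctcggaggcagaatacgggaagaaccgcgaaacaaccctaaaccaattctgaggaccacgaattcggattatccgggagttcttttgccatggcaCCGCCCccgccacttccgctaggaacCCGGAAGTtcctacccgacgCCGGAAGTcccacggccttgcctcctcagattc
KCTD20, chr6:36442750-36442999, plus strand: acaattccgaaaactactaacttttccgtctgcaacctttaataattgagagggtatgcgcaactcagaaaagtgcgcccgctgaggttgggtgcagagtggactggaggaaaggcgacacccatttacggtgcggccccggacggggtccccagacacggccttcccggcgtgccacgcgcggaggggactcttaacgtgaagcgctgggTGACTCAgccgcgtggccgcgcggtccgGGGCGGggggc

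The windows reached by lost regions were GC-rich, with a median of 61.2% G and C, beside 58.4% over all 33725 promoter windows on chromosomes 1 to 22 and 64.4% over the 16657 windows that any merged KYSE510 region reached. The GC box was the commonest motif. It lay in 20 of the 33 windows, or 60.6%, with 5 matches each upstream of KCTD17 and SPPL3, 3 each upstream of GART and TAPBP and 1 upstream of SERINC2. The share was 42.7% over all windows and 62.3% over those reached by any merged region. Windows reached by lost regions thus held the GC box about as often as windows reached by peaks in general. The E-box lay in 2 windows (6.06%), those of NPY1R with 1 match and SPPL3 with 2, beside 6.30% of all windows and 8.34% of those reached by any merged region. The AP-1 motif lay in 4 windows (12.1%), beside 6.54% of all, 6.53% of those reached and 11.4% of those reached by gained regions. These 4 were overlapping pairs, each pair sharing its match: KCTD20 with PXT1, and 2 windows of the non-coding gene LOC105374216. The ETS motif lay in 2 (6.06%), beside 3.47% of all and 6.33% of those reached, and the GATA motif in 2 (6.06%), beside 9.23% and 4.82%. The TEAD motif lay in 2 (6.06%), beside 11.9% and 10.1%, and the RUNX motif in 1 (3.03%), beside 11.0% and 8.37%. Several windows overlap because a pair of genes starts there in opposite directions, such as EAF1 and METTL6, whose 2 ETS matches are shared. Matches are a description of these letters and no test was made on them.

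At these promoters the control peaks were low. The region over the start of KCTD17, an adaptor of cullin-3 ubiquitin ligases, had heights of 8, 6 and 7 in control libraries 1, 2 and 3 and a peak of height 2 in silenced library 2. The region next to the start of NPY1R, a neuropeptide Y receptor, had heights of 5, 8 and 5, and that over the start of SPPL3, an intramembrane protease, had 5, 6 and 5. The region over the start of GART, an enzyme of purine synthesis, had 5, 8 and 7, that of SERINC2 had 6, 5 and 5, and that of TAPBP, which loads peptides onto MHC class I, had 6, 5 and 7. The region shared by EAF1, a partner of elongation factors, and METTL6 had 5, 3 and 5 with a peak of height 2 in silenced library 1, and that shared by KCTD20 and PXT1 had 10, 7 and 3. NPY1R, SPPL3, GART, SERINC2, TAPBP and KCTD20 had no deposited silenced peak of any height.

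Lost regions were low peaks as a whole. The lowest of the 3 control heights was 3, the smallest allowed, in 540 of the 798 regions (67.7%), 4 in 135, 5 to 9 in 111 and 10 or more in 12. In 91 regions the height was 3 in all 3 control libraries. The median height of the lost regions was 4 in each control library, and the highest was 26, 23 and 20 in libraries 1, 2 and 3. The median of the mean control height was 4, beside 4.33 for regions with 1 silenced peak and 10.0 for regions with a peak in all 6 libraries. Gained regions had a median of 4.33 over the silenced libraries.

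The rule asked for a height of 3 or more in each control library, and 540 regions had a lowest height at that floor. The values that follow therefore describe the lost regions and do not measure agreement between the libraries. The highest control height was at most 1.5 times the lowest in 470 regions and 2 times the lowest or more in 154, with a median ratio of 1.33 and a largest ratio of 3.75. Control library 1 alone was the tallest in 222 regions, library 2 in 185 and library 3 in 134, and the other 257 had no single tallest library. Median fold enrichment, the authors' ratio of height to local background, was 3.67, 3.62 and 3.39 in control libraries 1, 2 and 3. The authors' FDR was at most 0.05 in all 3 control libraries for 605 lost regions, in 2 for 144, in 1 for 41 and in none for 8.

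Some of these regions did have a peak below the height of 3 after silencing. A peak of height 2 lay over 40, 47 and 49 of them in silenced libraries 1, 2 and 3. No such peak was listed in any silenced library for 676 regions (84.7%), one was listed in 1 library for 108 and in 2 libraries for 14. No lost region had one in all 3. Just outside the rule, the 1 silenced peak of the 2685 regions that had one was of height 3 in 808 of them (30.1%) and had a median height of 4. That peak lay in silenced library 1 for 793 regions, in library 2 for 918 and in library 3 for 974.

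How far a region must have sunk to leave the lists depends on its background. The deposited p-value of a peak equals the Poisson tail of its height at its background in all 12 libraries (within 0.01 on the log10 scale for 100% of peaks), and no listed p-value was above 0.00987. From this the smallest listable height was computed for each lost region, the smallest height whose tail at its highest control background would pass. The height 1 step below it could stay unlisted. This takes the silenced background to be like the control background and leaves out the width a peak must reach. The smallest listable height was 2 for 531 lost regions (66.5%), 3 for 158, 4 for 62 and 5 or more for the rest, with a maximum of 15.

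Set against the tallest height that could stay unlisted, the lowest control height was at least 2 times as large in 630 regions, at least 3 times in 536 and at least 4 times in 81. It was under 2 times as large in 168 regions, and in 8 it did not exceed it. The largest ratio was 6. The ratio takes no account of listed silenced peaks of height 2. Where the tallest unlisted height was 1 and such a peak was listed, the margin was smaller than the ratio. The commonest case, in 451 regions, was a lowest control height of 3 where a height of 2 could be listed. If the premises above held, the silenced libraries there had a listed peak of 2 or an unlisted pile of at most 1. Because the width a peak must reach is left out, taller narrow piles may also have stayed unlisted. The ratios would then be too large, and this was not tested. The tallest regions had modest ratios, since their backgrounds were high as well.

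**Figure D2:**
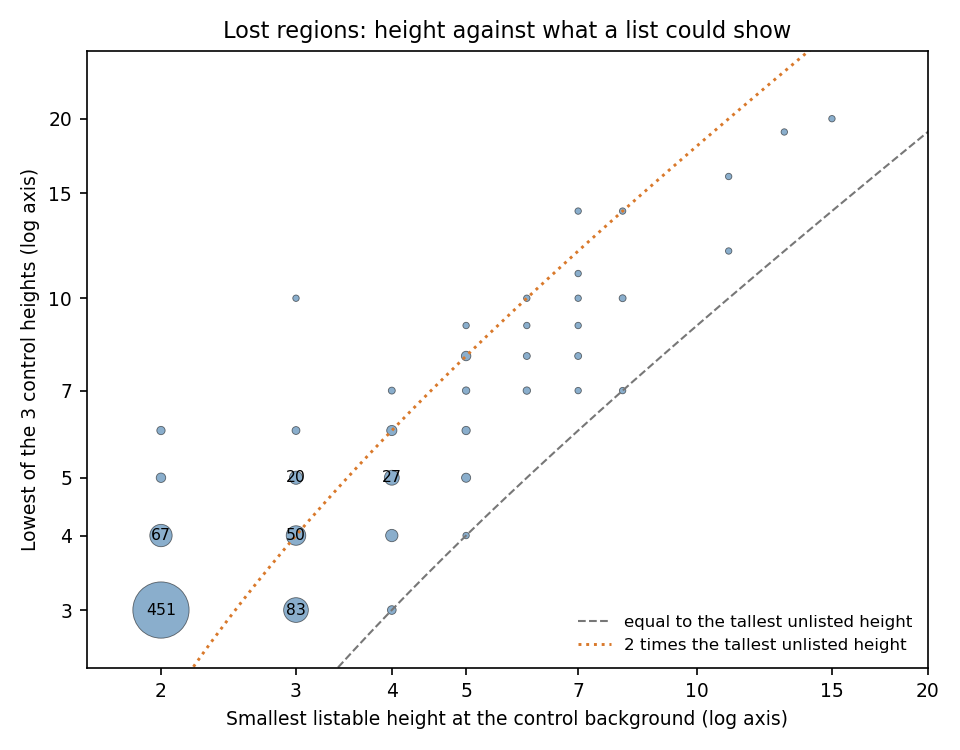
Lowest of the 3 control heights (vertical, log axis) against the smallest height that could be listed at the region's highest control background (horizontal, log axis); circle area grows with the number of the 798 lost regions, printed where it is 20 or more. The largest circle, 451 regions, sits at a control height of 3 and a smallest listable height of 2, and 8 regions lie on the dashed line where the control height equals the tallest unlisted one.

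The 12 first-ranked lost regions had control heights of 10 or more, and none had a deposited silenced peak of any height. The first lay in EXT1, which builds heparan sulfate chains, at chr8:118108838-118109109, 2717 bp from a start of the gene, with heights of 26, 20 and 20 in control libraries 1, 2 and 3. A pile of up to 14 could have stayed unlisted there, since the smallest listable height was 15. The second, at chr18:3384713-3385134 and 26875 bp from TGIF1, a homeobox repressor, had heights of 22, 23 and 19 with a smallest listable height of 13. The third, in the kinase gene MAP3K9 at chr14:70808182-70808464, had 20, 20 and 16 with a smallest listable height of 11. In these 3 regions the lowest control height was 1.43, 1.58 and 1.6 times the tallest unlisted height.

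The region in RGS20, a regulator of G protein signalling, at chr8:53885398-53885707, had heights of 26, 14 and 14 with a smallest listable height of 7. A pair of regions belonged to TSHZ3, a zinc finger transcription factor. The one inside the gene, at chr19:31290970-31291269, had 22, 14 and 18, and the one 388492 bp from its start, at chr19:31737928-31738266, had 13, 10 and 12. The region nearest to PSMA6, a proteasome subunit, had 15, 12 and 12 with a smallest listable height of 11, the narrowest margin of the 12. The region nearest to the immediate early gene IER2 had 13, 11 and 15, that in CTSB, a lysosomal protease, had 10, 14 and 12, and that nearest to OSBP, a sterol carrier, had 10, 11 and 10.

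PELP1, a coregulator of the oestrogen receptor, stood apart among the 12. Its region, at chr17:4679639-4680128 inside the gene and 24009 bp from its start, had heights of 12, 10 and 11 on a mean background of 0.5. Its smallest listable height was 3 and its mean control fold enrichment 8.04. It was 29498 bp from the nearest region with a peak in all 6 libraries. The other 11 regions had mean backgrounds between 1.99 and 6.07. Of the 12, 6 lay within 1 kb and 10 within 5 kb of a region with a peak in all 6 libraries.

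**Figure D3:**
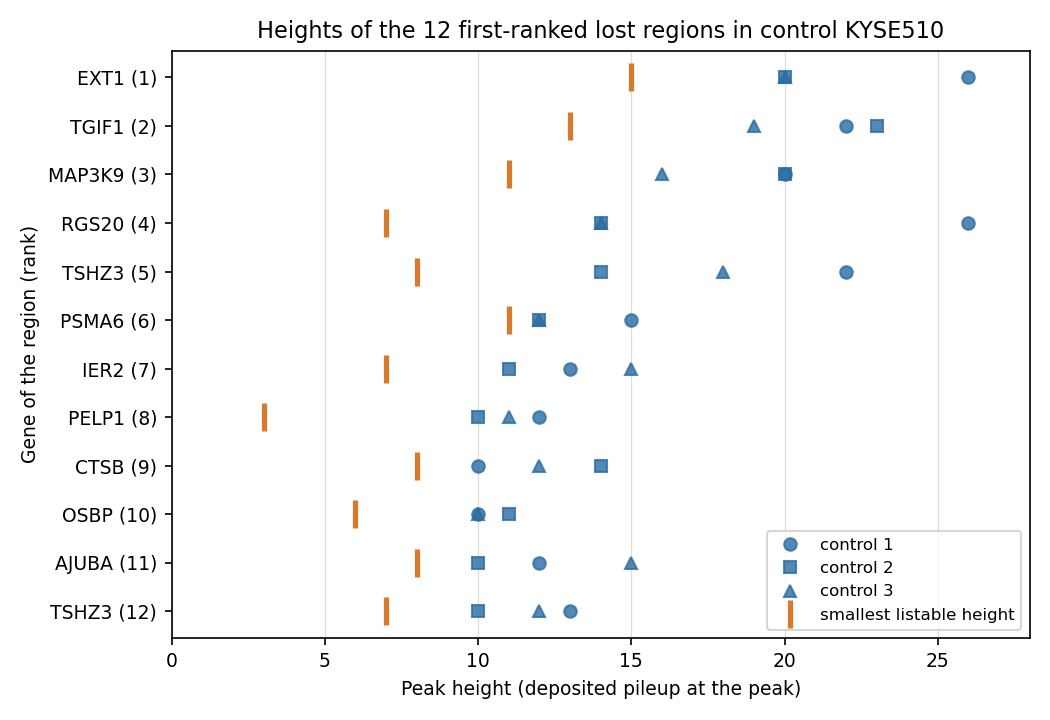
Deposited peak height (horizontal axis) of the 12 first-ranked lost regions, one per line with its gene and rank, in control libraries 1 (circles), 2 (squares) and 3 (triangles); orange bars mark the smallest height that could be listed at the region's background. All control heights are 10 or more, and the gap to the bar is widest for RGS20 and TSHZ3 at rank 5 in single libraries and narrowest for PSMA6.

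Ranking by the margin over the tallest unlisted height gave other regions, which were chosen after their values were seen. In 14 lost regions the lowest control height was at least 5 times that height, and in 5 it was 6 times. The 5 were the region in DAP3, a mitochondrial ribosomal protein gene, at chr1:155729043-155729487 with heights of 7, 8 and 6, the region in SYT9, a synaptotagmin, at chr11:7442581-7442941 with 6, 6 and 8, the region nearest to PREP at chr6:105669151-105669657 with 7, 8 and 6, one on chromosome 20 nearest to LOC124904970 with 6, 7 and 6, and one nearest to POU3F3 with 6, 6 and 6. The POU3F3 region had peaks of height 2 in silenced libraries 1 and 2, and the other 4 had no deposited silenced peak.

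Lost regions were spread over genes and intergenic DNA much as all merged regions were. A protein-coding gene was overlapped by 403 of them (50.5%), beside 49.8% of all merged regions, 119 (14.9%) overlapped only a long non-coding RNA gene, beside 12.5%, and 276 (34.6%) overlapped neither, beside 37.7%. Whether they fell in exons or introns was not analysed here. Their median width was 356.5 bp, beside 275 bp for all merged regions and 646 bp for regions with a peak in all 6 libraries. The median distance to the nearest protein-coding gene start was 38.6 kb, and 233 (29.2%) were over 100 kb away, beside 30.8% of all.

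Lost regions were near gene starts about as often as all merged regions. For genes with no start in the RefSeq promoter table, either end was counted as a start throughout. Of the lost regions, 65 (8.15%) reached within 1 kb of a protein-coding gene start. The share was 3.06% of the gained regions, 9.12% of the regions with 1 silenced peak, 21.1% of those with a peak in all 6 libraries and 7.77% of all merged regions. Among regions whose lowest height was 5 to 9, it was 25 of 111 lost regions (22.5%), 88 of 518 regions with 1 silenced peak (17%) and 16 of 262 gained regions (6.11%). Among those at a height of 3 it was 5.37%, 6.61% and 2.17%. The order of the lost and gained regions was the same in each of the 4 height classes, though at 10 or more it rested on 1 of 12 and 1 of 25 regions. No test was made, because regions are not replicates. With an FDR of 1e-05 or less in place of the height, 322 regions were lost and 20.5% of them were near a start, while among the 630 regions whose lowest control height was at least 2 times the tallest unlisted height the share was 5.40%.

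**Figure D4:**
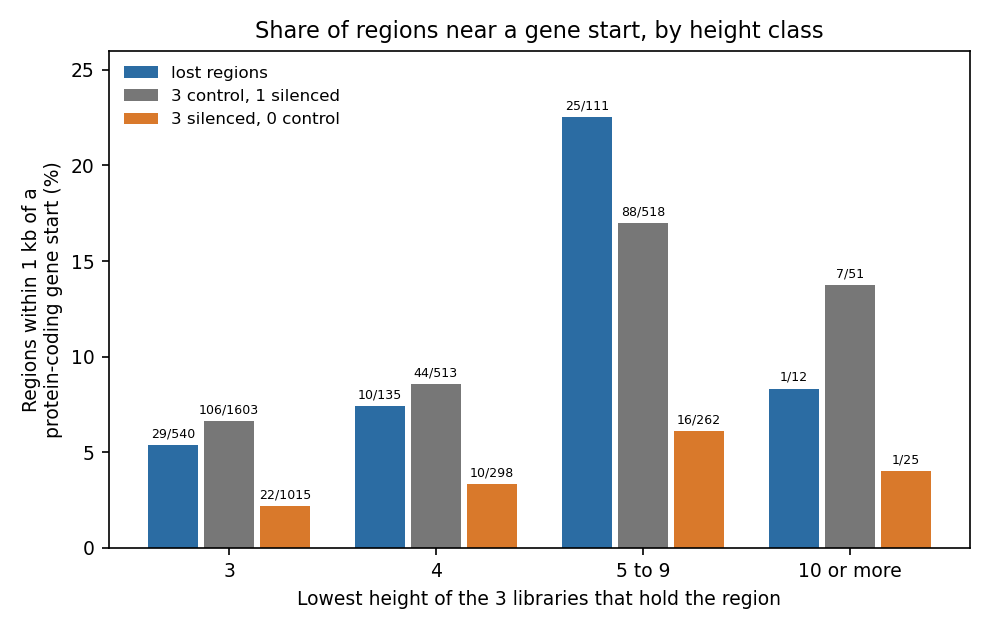
Percent of regions within 1 kb of a protein-coding gene start (vertical axis) by the lowest of the 3 heights that define them (horizontal axis), for lost regions (blue), regions with exactly 1 silenced peak (grey) and gained regions (orange); the numbers over the bars are regions near a start and all regions of the class. The blue bar is above the orange bar in each class and reaches 22.5% at heights of 5 to 9.

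Of the 65 lost regions near a start, 22 overlapped the start itself, or a gene end counted as one. Of the same 65, 21 were within 1 kb of a region with a peak in all 6 libraries. The tallest was at AJUBA, a LIM protein that inhibits the LATS kinases, at chr14:22977707-22977982. It lay 865 bp from the gene start and had heights of 12, 10 and 15, with a smallest listable height of 8. The region 761 bp from a start of DTNA, a dystrophin-associated protein, had 9, 12 and 13. That 431 bp from the start of ZNHIT6, an assembly factor of small nucleolar ribonucleoproteins, had 9, 8 and 9 and lay 70 bp from a region with a peak in all 6 libraries.

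The next promoter-proximal regions were lower. The region 744 bp from a start of CLIP4 had heights of 11, 9 and 8. The region 281 bp from the start of NEIL3, a DNA glycosylase, had 9, 7 and 9. The region 890 bp from SRP72, a subunit of the signal recognition particle, had 7, 7 and 7, and that 374 bp from a start of BUB3, a spindle checkpoint protein, had 8, 7 and 10. None of these 7 had a deposited silenced peak, unlike KCTD17, the eighth, described with its sequence. The 22 regions counted as over a start, named after their values were seen, also included those of BCL6, a transcriptional repressor (8, 6 and 4), VPS18 (7, 9 and 4), MYO18A (5, 5 and 4), PRKAA2, a catalytic subunit of AMP-activated kinase (6, 4 and 4), ALDH2 (4, 5 and 3) and PDK2 (7, 6 and 3). The 9 not yet named were at DEFB135, TCF20, GPR162, PCDHB3, CLDN8, C5orf63, FOLH1, ZNF597 and SEC14L2, with control heights of 3 to 8. The regions at VPS18, ALDH2, DEFB135, GPR162, CLDN8 and FOLH1 reached into none of the promoter windows. They may therefore lie at the far end of the gene, since either end was counted where no start was at hand.

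A minority of lost regions lay beside a region listed in all 6 libraries. Of the lost regions, 76 (9.52%) were within 1 kb of one, beside 5.06% of the gained regions, 7.23% of the regions with 1 silenced peak and 5.51% of all merged regions. The mean control background was 1 or more in 55 lost regions (6.89%), beside 7.52% of regions with 1 silenced peak and 8.91% of the 176751 merged regions that had a control peak, the only ones with a control background. In gained regions the mean silenced background was 1 or more in 5.19%. The part that a raised background plays in the lost regions was not tested. Without those 55 regions, 743 were left, of which 6.86% reached within 1 kb of a start.

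The lost regions were scattered over all 22 autosomes and over 748 genes. Chromosome 4 held 6.27% of them and 4.52% of all merged regions, chromosome 7 held 6.77% and 4.99%, and chromosome 13 held 2.76% and 1.82%. Chromosome 3 held 5.51% and 7.02%, and chromosome 19 held 1.88% and 2.77%. Neighbouring lost regions were a median of 2351 kb apart, and 20 regions lay within 50 kb of another. A single region was nearest to or inside 704 genes, 2 belonged to each of 38 genes, and 3 belonged to each of 6 genes: ADAMTS16, BMPER, CAMTA1, DLG2, FOXF2 and STXBP6, which are named after their values were seen.

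These 6 genes differed in their number of merged regions. ADAMTS16 had 204 merged regions in all, DLG2 had 198, CAMTA1 had 170, STXBP6 had 101, BMPER had 70 and FOXF2 had 23. FOXF2, a forkhead factor of mesenchyme, had regions at chr6:1381622-1382342 with heights of 3, 4 and 3, at chr6:1475236-1475637 with 3, 3 and 3, and at chr6:1477462-1477782 with 6, 3 and 4. The tallest of the 18 regions was at chr5:5350073-5350589, 29769 bp from ADAMTS16, a metalloprotease, with heights of 8, 8 and 10. The genes of lost and gained regions overlapped in part: 153 genes had both, which is 20.5% of the 748 genes with a lost region and 11.0% of the 1390 genes with a gained region. Of all 17714 genes with a merged region, 7.85% had a gained region and 4.22% a lost one; genes with more merged regions have more chances of either, which these shares leave out.

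On the list of the study's own genes (HCP5, UTP3, MYC and VAMP3), MYC had 1 lost region. It lay at chr8:127727277-127727739, 7695 bp from the gene, with heights of 10, 5 and 5 in control libraries 1, 2 and 3. Its smallest listable height was 5 and its largest control FDR was 0.258, so the peak was tall in library 1 and near the limit of the list in the other two. There was no silenced peak of any height. UTP3 and VAMP3, the other protein-coding genes of that list, had no lost region. Of the 432 merged regions assigned to the 13 genes of the MYC network list, 1 was a lost region (0.125% of lost regions, beside 0.172% of all merged regions) and 2 were gained.

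Of the 41 apoptosis genes on the list, 3 had a lost region, which is 0.376% of the lost regions beside 0.149% of all merged regions. CFLAR, which blocks activation of caspase-8, had one at chr2:201129133-201129437, 168 bp from a start, with heights of 5, 5 and 4. BCL2, which keeps mitochondria from releasing cytochrome c, had one inside the gene at chr18:63237891-63238351 with 4, 4 and 4 and a peak of height 2 in silenced library 1. FASLG, the ligand of the death receptor FAS, had one 85880 bp away with 6, 5 and 3, within 999 bp of a region with a peak in all 6 libraries. Of the gained regions, 3 (0.188%) belonged to genes of the list as well.

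The YAP-TEAD list, 27 genes of the Hippo pathway that couples cell contact to growth, had 5 lost regions (0.627%, beside 0.200% of all merged regions and 0.25% of gained regions). Besides AJUBA they belonged to LIMD1, NF2, TEAD1 and WWTR1. The region nearest to NF2, which encodes the tumour suppressor merlin, had heights of 4, 5 and 4 and a peak of height 2 in silenced library 2. The region in WWTR1, the coactivator TAZ, had 4, 5 and 8 and lay 164 bp from a region with a peak in all 6 libraries. The median of the mean control heights was 4.33, beside 4 over all lost regions.

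The receptor tyrosine kinases had 7 lost regions (0.877%, beside 0.608% of all), in or near ALK, AXL, DDR2, EPHA2, ERBB4, NTRK2 and ROR2. The region in EPHA2, at chr1:16138763-16139065, had heights of 12, 6 and 9, that in ALK had 4, 6 and 4, and that 132942 bp from NTRK2 had 5, 6 and 3 with peaks of height 2 in silenced libraries 1 and 2. The squamous regulators had 3 (0.376%, beside 0.236%): 1 nearest to ELF5 with 5, 3 and 4, and 2 nearest to SOX2 but 156769 and 244218 bp away, each with 3, 3 and 3. The epithelial-mesenchymal list had 2 (0.251%, beside 0.219% of all and 0.313% of gained regions), near SMAD7, an inhibitor of TGF-beta signalling (8, 6 and 5, 885 bp from the start), and TGFB2, a ligand of that pathway (5, 5 and 5, 315415 bp away). AP-1 had 1 near ATF3 (6, 3 and 3), 0.125% beside 0.150% of all, and the small subunit processome had 1 near WDR36 (3, 3 and 8), 0.125% beside 0.143%. The Notch list of 24 genes and the hemidesmosome and laminin list of 16 had none, where all merged regions would place 0.193% and 0.130%. These counts are small, no test of any list was made, and nothing is read from them beyond the counts.

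The KYSE150 libraries took no part in the choice of the lost regions, and so they allow a test. A KYSE150 peak of height 3 or more overlapped 22.7, 20.8 and 20.4% of the lost regions in control libraries 1, 2 and 3. It overlapped 18.5, 17.5 and 14.0% in silenced libraries 1, 2 and 3. All 3 silenced libraries were below all 3 control libraries. The mean share was 21.3% ± 1.21 (SD, n = 3) in control and 16.7% ± 2.37 (SD, n = 3) in silenced KYSE150, a difference of -4.59 percentage points. By a two-sided exact permutation test p was 0.1, the smallest that 3 against 3 libraries allow, and 0.167 after Benjamini-Hochberg adjustment over the 5 comparisons of this kind, so the difference did not pass 0.05 and could not have.

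Silenced KYSE150 libraries overlapped less of all merged KYSE510 regions too. That share was 20% ± 0.416 in control and 18.4% ± 1.14 in silenced KYSE150 (SD, n = 3 each), a difference of -1.56 points, and silenced library 3 had the fewest peaks. The share of lost regions was therefore also taken relative to the share of all merged regions in the same library. On the log2 scale this ratio was 0.22, 0.05 and 0.0063 in the control libraries and -0.04, -0.13 and -0.29 in the silenced libraries, a difference of -0.24 (exact permutation p = 0.1, adjusted 0.167, groups without overlap). For the gained regions the share was 19.6% ± 1.44 in control and 18.5% ± 2.35 in silenced KYSE150 (SD, n = 3 each). Their difference was -1.13 points (exact permutation p = 0.6) and their relative difference 0.03 on the log2 scale (exact permutation p = 0.7, adjusted 0.7). For regions with a peak in all 6 KYSE510 libraries the relative difference was of opposite sign to that of the lost regions. It was 0.06 on the log2 scale, also with groups without overlap and an exact permutation p of 0.1. With KYSE150 peaks of height 5 or more the difference in the share of lost regions was -1.88 points, and with regions chosen by an FDR of 1e-05 or less the relative difference was -0.04 on the log2 scale. The log2 ratio of the lost to the gained share differed by -0.27 between silenced and control KYSE150, again with an exact permutation p of 0.1.

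The regions with 1 silenced KYSE510 peak had KYSE150 shares of 26.6% ± 1.54 in control and 22.4% ± 1.88 in silenced libraries (SD, n = 3 each). The difference was -4.25 points, and relative to all merged regions -0.13 on the log2 scale, beside -4.59 points and -0.24 for the lost regions. Whether it differs from that of the lost regions was not tested. Within each height class of the lost regions the mean KYSE150 share was lower in silenced libraries: 19.1 and 14.8% at a lowest KYSE510 height of 3, 24.9 and 18.8% at 4, 27.3 and 23.1% at 5 to 9, and 22.2 and 19.4% at 10 or more. The control and silenced libraries were apart only at a height of 3 and overlapped in the other classes. At 4, silenced library 2 lay above control library 3. At 5 to 9, silenced library 1 (25.2%) lay above control library 3 (23.4%). Among the 12 regions at 10 or more, silenced library 1 (33.3%) lay above all 3 controls. The gained regions also had lower silenced means in 3 of the 4 classes.

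**Figure D5:**
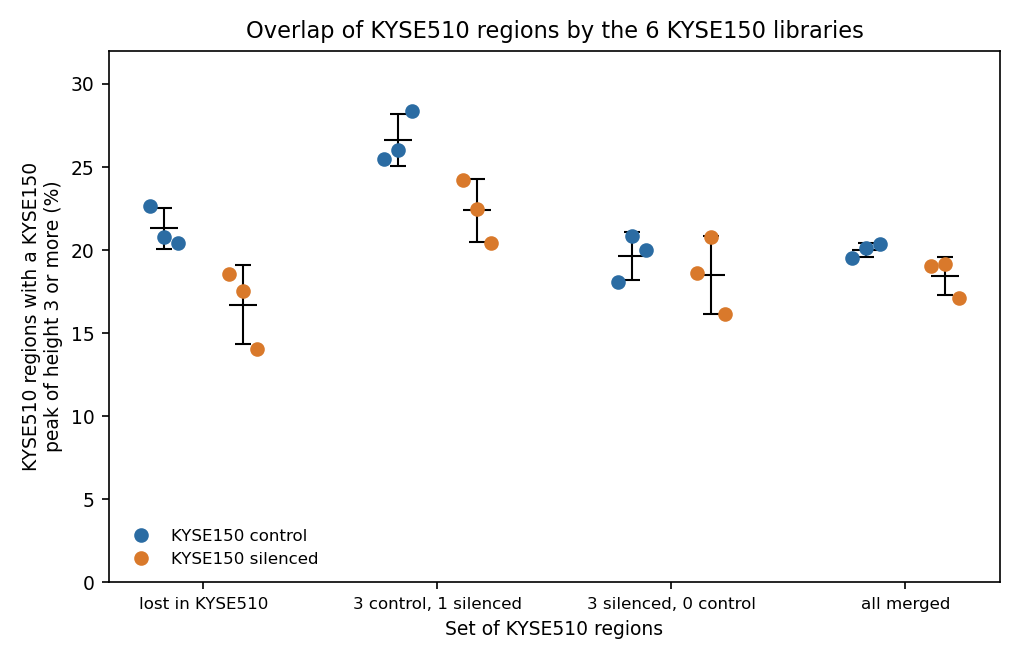
Percent of 4 sets of KYSE510 regions overlapped by a KYSE150 peak of height 3 or more (vertical axis) in each KYSE150 library, control in blue and silenced in orange, with replicates 1 to 3 from left to right and the mean ± SD in black. For the lost regions the control libraries lie at 20.4 to 22.7% and the silenced ones at 14.0 to 18.5%, while for the gained regions the groups overlap.

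Region by region the KYSE150 state was mixed. Of the 798 lost regions, 338 (42.4%) had a peak of height 3 or more in at least 1 KYSE150 library, beside 32.2% of all merged regions and 41.5% of gained regions. More control than silenced KYSE150 libraries had the peak in 157 lost regions, and fewer in 83, so that 65.4% of the uneven regions leaned to control. That percentage was 64.1% over regions with 1 silenced KYSE510 peak, 61.7% over regions with a peak in all 6 KYSE510 libraries, 59.4% over all merged regions and 54.1% over gained regions. A peak in all 6 KYSE150 libraries was found at 35 lost regions (4.39%), beside 10.2% of all merged regions and 5.50% of gained regions. In every KYSE150 library the median height of the overlapping peaks was 4.

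Only 5 lost regions had the same full pattern in KYSE150, a peak of height 3 or more in all 3 control and no silenced library. That is 0.627% of the lost regions, beside 0.293% of all merged regions, 0.188% of gained regions and 0.819% of regions with 1 silenced KYSE510 peak. The region 51115 bp from DEFB131A, a defensin gene, at chr4:9495529-9495968, had KYSE150 control heights of 4, 3 and 4 and a peak of height 2 in silenced library 1. The region nearest to SKIC8, a subunit of the SKI complex, at chr15:78317248-78317548, had 3, 3 and 4 and no silenced peak. The region 2831 bp from SH3BGR had 3, 6 and 3 and a peak of height 1 in each silenced library. The region in PARN, a poly(A) nuclease, had 4, 3 and 4 with a peak of height 1 in silenced library 3, and that nearest to PRICKLE1, a planar cell polarity gene, had 3, 6 and 4 with none.

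The opposite pattern in KYSE150 was found at 3 lost regions, 0.376% beside 0.109% of all merged regions, 0.0625% of gained regions and 0.298% of regions with 1 silenced KYSE510 peak. The region nearest to MDGA2 had KYSE150 silenced heights of 6, 3 and 3, that in TBC1D15, a Rab GTPase activator, had 4, 4 and 5, and that nearest to CD47, the signal that restrains phagocytes, had 4, 5 and 4. In each of these the KYSE150 control libraries held no peak above a height of 2. With 5 regions one way and 3 the other, the lines shared few regions that were listed in all of one group and none of the other.

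Some lost regions were listed well in KYSE150 whatever the treatment. At SRP72 the KYSE150 heights were 8, 10 and 16 in control and 6, 18 and 8 in silenced libraries, and at SMAD7 they were 6, 7 and 5 and 4, 8 and 6. At the BCL6 start they were 11, 8 and 8 in control and 6, 8 and 6 in silenced libraries. GART had 26 and 30 in control libraries 1 and 2 with none in library 3, and 4 and 22 in silenced libraries 2 and 3 with none in library 1. RGS20 had 26 and 7 in control libraries 1 and 3, and 17 and 29 in silenced libraries 1 and 2. SERINC2, TAPBP, CFLAR and MYO18A had no KYSE150 peak of any height. PELP1 had 5, 5 and 7 in the control libraries and 8 in silenced library 1 alone. Of the 22 lost regions over a gene start, or over a gene end counted as one, 10 had a KYSE150 peak of height 3 or more. Of these 10, 2 had it in more control and 1 in more silenced libraries.

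The fold enrichment itself could be tested where a KYSE150 region with a peak in all 6 libraries overlapped a lost region. The KYSE150 region can be wider, so the lost region itself need not be touched by a peak in every library, as at GART and RGS20. Ranks of fold enrichment within each library were turned into normal scores and compared by limma over all 26434 KYSE150 regions with a peak of height 3 or more in every library. No region passed an adjusted p of 0.05 (0%), and at an unadjusted p below 0.05 there were 723 higher (2.74%) and 690 lower (2.61%) after silencing. Of these KYSE150 regions, 45 overlapped lost regions, and 0 of them passed, with a smallest adjusted p of 0.933 by limma with Benjamini-Hochberg adjustment. At an unadjusted p below 0.05, 3 of the 45 were higher and 4 lower. The score was lower after silencing in 25 and higher in 20, with a median of -0.09 score units beside 0.0012 over all regions tested. This direction rested on single libraries: the median was 0.02 (22 lower and 22 higher) without control library 2, 0.04 (22 lower and 23 higher) without control library 3 and 0.01 (23 lower and 27 higher) without silenced library 1. The smallest p was at the region of PRPF38B, a splicing factor gene, with a score difference of -1.42 ± 0.469 (SE), unadjusted p = 0.00977 and adjusted p = 0.933 by limma.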

How the data were processed

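Deposited peak tables of 12 ATAC-seq libraries were used, 3 per group. The submitters' processing notes name Trimmomatic 0.36, Bowtie2 2.2.6, Picard 2.8.2, MACS2 2.1.1, bedtools 2.25.0 and GRCh38, with no role or order. Per the file headers each peak has a pileup, here called height, which is a signal at 1 position, a fold enrichment, which is the authors' ratio over background, and a p-value and FDR on the linear scale. Peaks were called per library. No counts were used and depth is unknown.

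Coordinates count from 1. Genes came from RefSeq (GRCh38.p14, 20037 protein-coding genes). Starts were those of a promoter table for 15842 of them and both ends for the rest. A region's gene is the one it overlaps, or the nearest. Analyses used Python 3.11.15, numpy 2.4.6, pandas 2.3.3, scipy 1.17.1, matplotlib 3.10.9, R 4.3.3 and limma 3.58.1 (lmFit, eBayes, Benjamini-Hochberg, adjusted p under 0.05), which was tested on simulated data. Background was solved from height and fold enrichment as (height + 1) / fold enrichment - 1.

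Regions were ranked by the lowest control height, with ties by mean fold enrichment. The text names the first 12, the first 8 within 1 kb of a start, the first 6 with the same or the opposite pattern in KYSE150, and the first 3 per gene list, among squamous regulators, AP-1, MYC network, apoptosis, small subunit processome, hemidesmosome and laminin, YAP-TEAD, receptor tyrosine kinases, Notch, epithelial-mesenchymal state and the study's own genes (HCP5, UTP3, MYC, VAMP3). The regions, lists and tests were chosen with earlier results of these data known. Motifs were planned in bases around each peak's summit. The tables used here give no summit and no genome was used, so promoter windows took their place. Alternatives varied the height, FDR, overlap, libraries and start distance.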

Additional observations from a re-analysis of the deposited data

How the results depend on the processing

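The number of lost regions depended on the rule. It was 322 with an FDR of 1e-05 or less in place of the height, 3483 when 1 silenced library was allowed a peak, and 1600 to 2774 when 1 of the 6 KYSE510 libraries was left out, which by construction asks for agreement of fewer libraries. Under the other 8 of 16 alternatives it was within 1.5 times of 798. Of the 12 first-ranked regions, 1 stayed lost with an FDR of 1e-05 or less, and all 12 did under the other 13 alternatives. The share within 1 kb of a gene start was 20.5% with an FDR of 1e-05 or less and 14.7% for a distance of 5 kb. It was 5.40% where the lowest control height was at least 2 times the tallest unlisted height, an alternative chosen after seeing the data, and for the first and the last of these the cause was not tested. With 1 KYSE510 library left out it was 6.86 to 9.75%.

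The KYSE150 difference in the share of lost regions was below 0 under all 27 alternatives, from -6.43 to -1.88 percentage points, and relative to all merged regions under all 28, from -0.35 to -0.04 on the log2 scale. Exact permutation p was 0.1 to 0.3 throughout, in designs that could not reach 0.05. With 1 library of either line left out the ranges were -5.51 to -3.06 points and -0.30 to -0.16. The limma rank test called 0 of the regions that overlap lost regions under all 10 alternatives, with a smallest adjusted p of 0.839 to 0.982. The median score difference of those regions was -0.12 to 0.04 with 1 KYSE150 library left out and above 0 without control library 2, control library 3 or silenced library 1.

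Control and silenced libraries share replicate numbers. The deviations of same-numbered KYSE150 libraries from their group means correlated with r = 0.0655, 0.0595 and 0.0153, so the numbers were not taken as pairs, although each library correlated best with its own number. With the replicate block the differences were -4.59 points and -0.24 (exact sign-flip permutation p = 0.25 each, the smallest that 3 pairs allow), and limma called 0 regions with a smallest adjusted p of 0.854. The lowest control height was 3 in 67.7% of the lost regions, and with no read counts no counting error could be set beside such heights.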
